A study of Mus musculus with 4 samples.

Results

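The genes described here are the replication-dependent histone genes of the mouse, followed in liver after an adenovirus that carries the transcriptional coactivator Med1. They were chosen by the gene symbol given to each probe of the array (H2ac, H2bc, H3c or H4c with a number), and no measured value entered the choice. The rule found 50 genes of 19057 with a probe, read by 78 of 45281 probes: 16 H2A, 13 H2B, 9 H3 and 12 H4 genes, with 23, 18, 18 and 19 probes. All 50 lie in the mouse histone clusters, 41 of them on chromosome 13 between positions 21716412 and 23934913 and 9 on chromosome 3 between positions 96219885 and 96270192 (RefSeq, GRCm38.p6). No linker histone H1 gene met the rule, because the platform lists these under other symbols.

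Livers came from C57BL6/J mice, 5.5 weeks old, that carried Med1 with loxP sites on both alleles (Med1fl/fl), and the labels name no Cre in any group. The 4 groups were Ad-His-Med1 (Ad-Med1, an adenovirus that expresses Med1) at day 3 and at day 5 after a tail vein injection, and Ad-LacZ (the same kind of vector with beta-galactosidase) at day 3 and at day 5. Each group was 1 Illumina array, so no comparison within a day has a replicate check, and the labels do not say how many animals an array holds. The series asks whether raised Med1 drives cell proliferation.

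Replication-dependent histones build the nucleosomes that package new DNA. An octamer core is made of H2A paired with H2B and of H3 paired with H4, and the genes for all of them are transcribed mainly while a cell copies its DNA. Their genes have no introns and lie close together, many H2A and H2B genes head to head, and their mRNAs end in a stem loop bound by Slbp in place of a poly(A) tail. Adult liver is mostly resting, and hepatocytes re-enter the cell cycle after injury or mitogens. The labelling kit named in the labels primes from poly(A), so these arrays read whatever share of histone RNA was primed in that way, and its part in the results was not tested. Copies within a class are nearly identical, probe sequences were not used here, and a probe can read RNA of several copies: the probes of one class are not independent of each other.

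Of the 9 H2A and H2B genes that stand head to head with their starts at most 400 bases apart (164 to 281 bases), 3 pairs had both genes read on both days. The whole stretch between their starts is shown, since each stretch faces an H2A gene on one side and an H2B gene on the other, and the 2 sides gave different values. Each reads 5′ to 3′ towards the H2B gene, and the coordinates are from RefSeq on GRCm38.p6. Capitals mark motifs found on either strand. The first is CCAAT, printed as its reverse complement where it lies on the other strand. The second is part of the octamer element, ATTTGCA. The third, TATAAA, is found a short way before many start sites. No motif overlapped another in these stretches.
H2ac15 and H2bc15, chr13:21753913-21754075, plus strand: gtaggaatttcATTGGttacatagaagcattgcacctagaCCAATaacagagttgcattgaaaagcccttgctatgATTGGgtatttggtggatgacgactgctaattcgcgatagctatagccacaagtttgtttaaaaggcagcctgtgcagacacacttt
H2ac12 and H2bc12, chr13:22035644-22035820, plus strand: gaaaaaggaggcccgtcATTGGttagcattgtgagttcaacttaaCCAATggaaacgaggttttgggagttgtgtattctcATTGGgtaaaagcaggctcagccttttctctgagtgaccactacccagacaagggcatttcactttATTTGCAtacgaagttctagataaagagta
H2ac7 and H2bc7, chr13:23574208-23574380, minus strand: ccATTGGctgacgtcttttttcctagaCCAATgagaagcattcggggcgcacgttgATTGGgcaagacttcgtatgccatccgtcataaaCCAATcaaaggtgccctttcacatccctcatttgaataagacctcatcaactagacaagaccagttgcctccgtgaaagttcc
The stretch of H2ac15 and H2bc15 (163 bases) held 3 CCAAT, that of H2ac12 and H2bc12 (177 bases) held 3 CCAAT motifs together with 1 octamer part, and that of H2ac7 and H2bc7 (173 bases) held 4 CCAAT. None of the 3 held TATAAA. RefSeq gave a promoter for 45 of the 50 genes. In the 250 bases before the start, CCAAT was in 16 of 16 H2A, 11 of 11 H2B, 6 of 7 H3 and 3 of 11 H4 promoters, against 34.5% of 27025 promoters in all. ATTTGCA was in 6 of 16 H2A and 6 of 11 H2B promoters and in none of the 7 H3 or 11 H4 promoters, against 3.48% of all. TATAAA was in 7 of 16 H2A, 6 of 11 H2B, 2 of 7 H3 and 6 of 11 H4 promoters, against 13% of all. Head-to-head genes share part of these windows, so the H2A and H2B counts are not separate.

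Signals were background-corrected and quantile-normalized, and levels are log2 of that signal. A probe counts as detected at a detection p-value under 0.01. Of the 78 histone probes, 62 (43 genes) were detected on at least 1 array and 42 on all 4. The other 16 probes were detected on none, and they leave 7 genes with no detected probe: H2ac4, H2ac6, H2bc1, H2bc18, H2bc3, H3c3 and H4c2. A difference is Ad-Med1 minus Ad-LacZ of the same day in log2 units, over the probes detected on at least 1 of the 2 arrays, and at least 2-fold means at least 1 log2 unit either way. Where a probe was not detected on one array, its difference has only a bound, given as "at least" a fold over the lowest detected signal of that array (or the probe's own signal where that was higher).

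The arrays stood apart in several ways before any histone gene was compared. Median raw intensity was 153 and 164 on the Ad-Med1 arrays of days 3 and 5, against 94.1 and 100.4 after Ad-LacZ, and detected probes numbered 14752 and 15294 there, against 12899 and 14062 after Ad-LacZ. Med1, the targeted gene, was read by 5 probes, of which 2 were detected on no array. Its probe ILMN_2658227 stood at 11.16 and 12.22 on the Ad-Med1 arrays of days 3 and 5, against 5.94 and 6.38 (not detected) on the Ad-LacZ arrays, which makes it at least 20.9-fold higher at day 3 and at least 56.1-fold higher at day 5. ILMN_3106388 was higher by 2.08 and 2.19, and ILMN_1220563 by 1.99 at day 3 and 0.20 at day 5. Eif2s3y, a gene of the Y chromosome, was detected on the Ad-Med1 day 5 array (10.54) and the Ad-LacZ day 3 array (9.52), and not on the Ad-Med1 day 3 (4.64) or the Ad-LacZ day 5 array (4.65). Xist, the RNA of the inactive X chromosome, was detected on 3 arrays. Its brightest probe stood at 11.17 and 9.51 on the Ad-Med1 arrays of days 3 and 5, against 5.31 (not detected) and 8.15 on the Ad-LacZ arrays, while ILMN_1224091 stood at 8.64 and 7.52 after Ad-Med1, against 4.73 (not detected) and 12.15 after Ad-LacZ. The Ad-Med1 day 5 array thus held both Xist and Eif2s3y. Within each day, the virus and these sex-linked levels cannot be told apart.

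Marker genes of other cell types also differed between the arrays, and their part in the histone values was not tested. Of 7 hepatocyte markers, 6 were detected on each array except Ad-LacZ day 3, where 5 were, and their summed level lay between 17.19 and 17.32 on the 4 arrays. Such a sum adds unlogged signals, so the brightest genes weigh most in it, here Ttr, Apoa1 and Apoa2. Cps1 had differences of -0.65 at day 3 and -0.08 at day 5, and Serpina1a of 0.27 and -0.67. By the brightest probe of each marker, 1 of 6 compared was at least 2-fold higher at day 3 and 1 of 6 at least 2-fold lower at day 5. Both were Alb, at least 1.13-fold higher at day 3 (not detected on the Ad-LacZ array) and 1.28 (log2) lower at day 5. The Alb probe was dim, at levels of 6.95 and 6.31 after Ad-Med1 and 5.84 and 7.59 after Ad-LacZ at days 3 and 5. Ttr, by contrast, lay between 15.17 and 15.33 on the 4 arrays. What the Alb probe reads at such low levels was not tested. A second Apoa2 probe, ILMN_2775957, had differences of 2.25 at day 3 and -0.24 at day 5. Of 5 neutrophil markers, 5 were detected on each Ad-Med1 array, against 2 on each Ad-LacZ array, with summed levels of 11.54 and 12.65 against 9.49 and 10.37 at days 3 and 5. The summed level of 5 macrophage markers was 9.33 and 11.46 on the Ad-Med1 arrays of days 3 and 5 and 13.01 and 11.05 on the Ad-LacZ arrays. Clec4f and Vsig4, which define Kupffer cells, were not detected on the Ad-Med1 day 3 array. Of 4 macrophage markers compared at day 3, 3 (Clec4f, Vsig4 and Marco) were at least 2-fold lower. The other, Adgre1, was detected on every array, with differences of -0.05 at day 3 and 0.33 at day 5 by its brightest probe. Of 5 T cell markers, 0 and 3 were detected on the Ad-Med1 arrays of days 3 and 5, against 1 and 2 on the Ad-LacZ arrays, with summed levels of 7.86 and 10.48 against 8.17 and 8.56. Of 3 B cell markers, 1 was detected on each day 5 array and 0 on each day 3 array (7.30 and 7.42 after Ad-Med1, 6.99 and 7.49 after Ad-LacZ at days 3 and 5). The 5 erythroid markers summed to 10.43 and 14.27 on the Ad-Med1 arrays and to 14.82 and 14.21 on the Ad-LacZ arrays. In whole liver, fewer cells of a type and less RNA per cell cannot be told apart.

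At day 3 the H2B, H3 and H4 genes were higher after Ad-Med1 than after Ad-LacZ, and the H2A genes were not. Of 58 histone probes compared, 39 (67.2%) were at least 2-fold higher, where 18.3% of all 15585 probes compared were, and 1 (1.72%) was at least 2-fold lower, where 14.7% of all probes were. The median difference was 2.77 for H3, 2.34 for H4, 1.57 for H2B and -0.44 for H2A, against -0.05 for all probes. All 12 H3 and all 14 H2B probes compared, and 12 of 13 H4 probes, were at least 2-fold higher, but 1 of 19 H2A probes was, a share (5.26%) below that of all probes. Of the 40 probes past 2-fold, 15 had only a bound, and 2 of these bounds were under 2-fold.

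At day 5 most histone probes were lower after Ad-Med1, and H2A probes by the most. Of 60 compared, 37 (61.7%) were at least 2-fold lower, where 9.8% of all 16080 probes compared were, and 1 (1.67%) was at least 2-fold higher, where 10.1% of all were. The median difference was -2.58 for H2A, -1.76 for H4, -0.96 for H3 and -0.61 for H2B, against 0.05 for all probes. At least 2-fold lower were 19 of 21 H2A probes, 13 of 15 H4 probes, 4 of 11 H3 probes and 1 of 13 H2B probes; the H2B share (7.69%) was below that of all probes. Of the 38 probes past 2-fold, 4 had only a bound, and 3 of these bounds were under 2-fold.

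**Figure D1:**
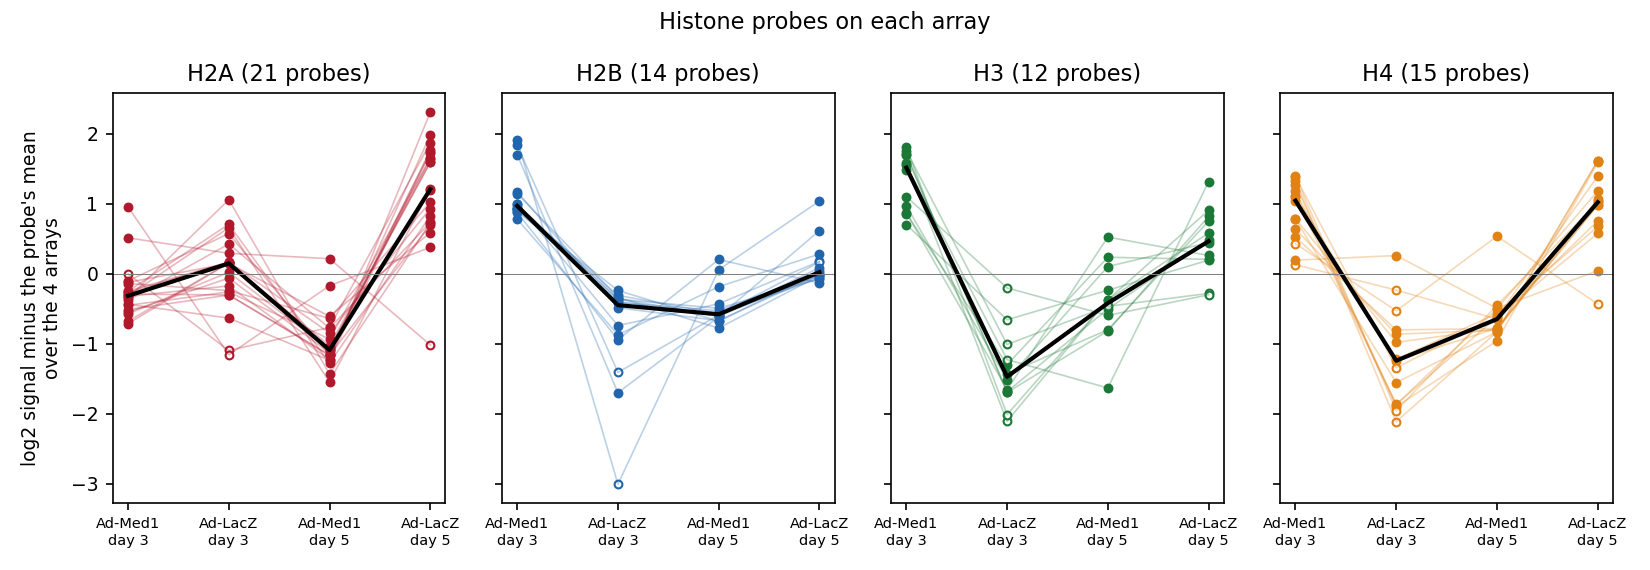
Log2 signal of each histone probe detected on at least 1 array, less that probe's own mean over the 4 arrays, by class; thin lines join the values of a probe, the black line joins the class medians and open points are not detected. H2A probes were highest on the Ad-LacZ day 5 array (18 of 21), H2B and H3 probes on the Ad-Med1 day 3 array (14 of 14 and 12 of 12), and H4 probes were high on both of these. Of all detected probes, 18.3% were highest on the Ad-LacZ day 5 array and 23.5% on the Ad-Med1 day 3 array.

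H2A pairs with H2B, and these dimers flank the core of H3 and H4 in the nucleosome. H2ac22 (older symbol Hist1h2an) stood at 8.97 and 8.17 on the Ad-Med1 arrays of days 3 and 5, against 8.77 and 11.72 on the Ad-LacZ arrays, a difference of 0.20 at day 3 and -3.55 at day 5 (11.7-fold lower), the widest of any histone probe at day 5. H2ac10 (Hist1h2af) had probe ILMN_1219574 at 9.34 (day 3) and 8.69 (day 5) after Ad-Med1, and 9.55 and 11.83 after Ad-LacZ, a difference of -0.21 and -3.14. Its probe ILMN_1252136, the brightest of the class, stood at 12.58 at day 3 and 12.10 at day 5 with Ad-Med1, where Ad-LacZ gave 12.85 and 13.30, a difference of -0.27 and -1.20. Both H2ac10 probes were thus below 0 on both days, and at least 2-fold lower at day 5 alone. H2ac15 (Hist1h2ak) stood at 9.07 and 8.17 on the Ad-Med1 arrays of days 3 and 5, against 9.22 and 11.13 on the Ad-LacZ arrays, a difference of -0.15 at day 3 and -2.96 at day 5. H2ac12 (Hist1h2ah) had probe ILMN_1246108 at 9.11 (day 3) and 8.23 (day 5) after Ad-Med1, and 9.09 and 11.16 after Ad-LacZ, a difference of 0.01 and -2.93. ILMN_2730329, its other probe, stood at 8.40 at day 3 and 7.81 at day 5 with Ad-Med1, where Ad-LacZ gave 8.88 and 10.68, a difference of -0.48 and -2.87. For H2ac22, H2ac15 and H2ac12 alike, the highest level was on the Ad-LacZ day 5 array, and the other 3 arrays lay nearer to each other than to it.

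Every other detected H2A probe of chromosome 13 was also highest on the Ad-LacZ day 5 array, apart from that of H2ac8. H2ac24 (Hist1h2ap) stood at 10.40 and 10.01 on the Ad-Med1 arrays of days 3 and 5, against 11.23 and 12.67 on the Ad-LacZ arrays, a difference of -0.83 at day 3 and -2.66 at day 5. H2ac13 (Hist1h2ai) had probe ILMN_1238276 at 9.68 (day 3) and 9.16 (day 5) after Ad-Med1, and 10.28 and 11.90 after Ad-LacZ, a difference of -0.60 and -2.74. Its second probe, ILMN_2745212, stood at 11.88 at day 3 and 11.48 at day 5 with Ad-Med1, where Ad-LacZ gave 12.68 and 12.99, a difference of -0.80 and -1.51. On this second probe the Ad-LacZ arrays lay close together, with day 5 above day 3 by 0.31. H2ac7 (Hist1h2ad) had probe ILMN_1226839 at 10.18 and 9.87 on the Ad-Med1 arrays of days 3 and 5, against 11.05 and 12.49 on the Ad-LacZ arrays, a difference of -0.87 and -2.62. ILMN_2795040 for the same gene stood at 9.03 (day 3) and 8.55 (day 5) after Ad-Med1, and 9.22 and 11.13 after Ad-LacZ, a difference of -0.19 and -2.58. H2ac11 (Hist1h2ag) and H2ac1 (Hist1h2aa, the testis H2A) were detected on the Ad-LacZ day 5 array alone. H2ac11 stood at 6.14 at day 3 and 5.38 at day 5 with Ad-Med1, where Ad-LacZ gave 5.05 and 8.01, at least 3.8-fold lower after Ad-Med1 at day 5. H2ac1 stood at 5.37 and 4.87 on the Ad-Med1 arrays of days 3 and 5, against 5.27 and 6.53 on the Ad-LacZ arrays, at least 1.36-fold lower at day 5. H2ac8 (Hist1h2ae) stood apart from its class: it stood at 8.18 (day 3) and 7.05 (day 5) after Ad-Med1, and 6.06 and 7.60 after Ad-LacZ, not detected on the Ad-LacZ day 3 array, at least 2.64-fold higher at day 3, and had a difference of -0.55 at day 5.

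On chromosome 3, 6 of 7 H2A probes compared were below 0 on each day, against 9 of 12 at day 3 and 14 of 14 at day 5 on chromosome 13. Of all probes compared, 8123 of 15585 were below 0 at day 3 and 7612 of 16080 at day 5. H2ac18 (Hist2h2aa1) and H2ac19 (Hist2h2aa2) are near-identical copies whose probes may read each other. The H2ac18 probe ILMN_1231053 stood at 11.30 at day 3 and 10.21 at day 5 with Ad-Med1, where Ad-LacZ gave 12.70 and 12.37, a difference of -1.40 at day 3 and -2.16 at day 5, the only histone probe at least 2-fold lower on both days. ILMN_2751948 for H2ac18 stood at 9.86 and 8.80 on the Ad-Med1 arrays of days 3 and 5, against 10.53 and 10.66 on the Ad-LacZ arrays, a difference of -0.67 and -1.86. The dim H2ac18 probe ILMN_1228849 disagreed with both: it stood at 7.29 (day 3) and 6.99 (day 5) after Ad-Med1, and 7.07 and 5.76 after Ad-LacZ, not detected on the Ad-LacZ day 5 array, a difference of 0.22 at day 3 and at least 1.5-fold higher at day 5. H2ac19 stood at 11.69 at day 3 and 10.65 at day 5 with Ad-Med1, where Ad-LacZ gave 12.64 and 12.76, a difference of -0.96 and -2.11. H2ac20 (Hist2h2ac) had probe ILMN_1218380 at 12.05 and 11.45 on the Ad-Med1 arrays of days 3 and 5, against 12.47 and 13.23 on the Ad-LacZ arrays, a difference of -0.41 and -1.78. Its other probe, ILMN_1254276, stood at 9.11 (day 3) and 7.88 (day 5) after Ad-Med1, and 10.08 and 10.63 after Ad-LacZ, a difference of -0.97 and -2.76. Both H2ac20 probes were lowest on the Ad-Med1 day 5 array. H2ac21 (Hist2h2ab) stood at 7.63 at day 3 and 6.81 at day 5 with Ad-Med1, where Ad-LacZ gave 8.07 and 9.10, a difference of -0.44 and -2.29. The H2A medians on chromosome 3 were -0.67 (day 3) and -2.11 (day 5), while those on chromosome 13 were -0.24 and -2.65.

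H2B forms the dimer with H2A, but its probes were higher after Ad-Med1 at day 3 and within 2-fold at day 5, with 1 exception. H2bc4 (Hist1h2bc), with the brightest probe of the class (ILMN_1242399), stood at 14.23 and 13.27 on the Ad-Med1 arrays of days 3 and 5, against 12.58 and 13.73 on the Ad-LacZ arrays, a difference of 1.65 at day 3 and -0.47 at day 5. Its dim probe ILMN_2677231 stood at 9.58 (day 3) and 7.72 (day 5) after Ad-Med1, and 4.65 and 8.70 after Ad-LacZ, not detected on the Ad-LacZ day 3 array, at least 6.96-fold higher at day 3, and had a difference of -0.98 at day 5. H2bc6 (Hist1h2be) had probe ILMN_2742592 at 14.21 at day 3 and 12.62 at day 5 with Ad-Med1, where Ad-LacZ gave 12.86 and 13.20, a difference of 1.35 and -0.58. ILMN_1252995, also for H2bc6, stood at 13.47 and 11.95 on the Ad-Med1 arrays of days 3 and 5, against 12.21 and 12.45 on the Ad-LacZ arrays, a difference of 1.26 and -0.50. These probes were highest on the Ad-Med1 day 3 array, and on the day 5 arrays the Ad-Med1 value was below the Ad-LacZ value. H2bc7 (Hist1h2bf) stood at 14.10 (day 3) and 12.64 (day 5) after Ad-Med1, and 12.76 and 13.18 after Ad-LacZ, a difference of 1.34 and -0.54. H2bc9 (Hist1h2bh) stood at 13.61 at day 3 and 12.09 at day 5 with Ad-Med1, where Ad-LacZ gave 12.30 and 12.78, a difference of 1.32 and -0.69. H2bc11 (Hist1h2bj) stood at 13.64 and 12.22 on the Ad-Med1 arrays of days 3 and 5, against 12.35 and 12.64 on the Ad-LacZ arrays, a difference of 1.30 and -0.42. For all 3 genes the day 3 difference was above 1 and the day 5 difference between -1 and 0.

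The other H2B genes of chromosome 13 were also highest on the Ad-Med1 day 3 array. H2bc12 (Hist1h2bk) had probe ILMN_2636781 at 12.15 (day 3) and 10.58 (day 5) after Ad-Med1, and 11.02 and 11.29 after Ad-LacZ, a difference of 1.13 and -0.71. The other H2bc12 probe, ILMN_2655785, stood at 12.77 at day 3 and 10.93 at day 5 with Ad-Med1, where Ad-LacZ gave 11.11 and 11.59, a difference of 1.66 and -0.66. H2bc14 (Hist1h2bm) stood at 12.84 and 10.91 on the Ad-Med1 arrays of days 3 and 5, against 11.35 and 11.66 on the Ad-LacZ arrays, a difference of 1.48 and -0.75. All of these were highest on the Ad-Med1 day 3 array and lowest on the Ad-Med1 day 5 array. H2bc15 (Hist1h2bn) stood at 12.88 (day 3) and 11.45 (day 5) after Ad-Med1, and 11.14 and 12.06 after Ad-LacZ, a difference of 1.74 and -0.61. H2bc8 (Hist1h2bg) was detected on the Ad-Med1 day 3 array alone: it stood at 8.0 at day 3 and 5.57 at day 5 with Ad-Med1, where Ad-LacZ gave 4.75 and 6.32, at least 2.33-fold higher at day 3 and not compared at day 5. On chromosome 3, H2bc21 (Hist2h2be) had 2 probes that disagreed at day 5. Its probe ILMN_1253851 stood at 10.36 and 8.04 on the Ad-Med1 arrays of days 3 and 5, against 6.96 and 9.28 on the Ad-LacZ arrays, a difference of 3.40 at day 3 and -1.23 at day 5, the one H2B probe at least 2-fold lower there. ILMN_1231066 for H2bc21 stood at 8.76 (day 3) and 8.09 (day 5) after Ad-Med1, and 6.94 and 7.75 after Ad-LacZ, a difference of 1.82 and 0.34, the one H2B probe above 0 at day 5.

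**Figure D2:**
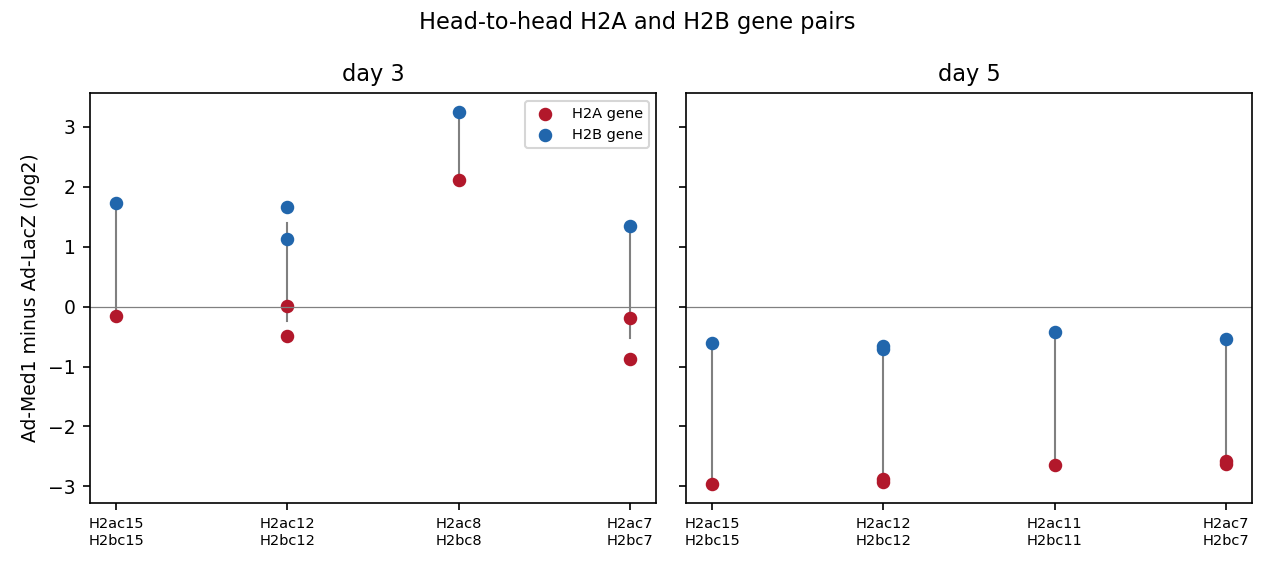
Difference between the Ad-Med1 and Ad-LacZ arrays (log2) at day 3 (left) and day 5 (right) for head-to-head H2A and H2B genes with both genes compared; each point is a probe and the grey line joins the mean of the H2A probes to the mean of the H2B probes. H2B points lie above the H2A points of their pair in 4 of 4 pairs at day 5 and in 3 of 3 at day 3 apart from H2ac8 and H2bc8, whose day 3 points rest on signals not detected after Ad-LacZ and have no known order.

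The head-to-head pairs put both classes side by side around the stretches printed above. For H2ac15 and H2bc15 the day 3 difference was -0.15 for the H2A gene and 1.74 for the H2B gene, and the day 5 difference was -2.96 and -0.61. For H2ac12 and H2bc12 the H2A probes stood at -0.48 and 0.01 and the H2B probes at 1.13 and 1.66 at day 3. At day 5 the same H2A probes stood at -2.87 and -2.93 and the H2B probes at -0.71 and -0.66. For H2ac7 and H2bc7 the H2A probes stood at -0.87 and -0.19 and the H2B probe at 1.34 at day 3, and at -2.62, -2.58 and -0.54 at day 5. H2ac8 and H2bc8 were compared at day 3 alone, with measured differences of 2.12 and 3.25, and H2ac11 and H2bc11 at day 5 alone, with -2.64 and -0.42. In 3 of the 4 pairs compared at day 3 and in 4 of 4 at day 5 the H2B gene was thus above its H2A partner. For H2ac8 and H2bc8 the order at day 3 is not known, since neither was detected on the Ad-LacZ day 3 array and their bounds are at least 2.64-fold and at least 2.33-fold. RNA of other copies may be read by each probe.

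H3, which carries most of the known histone tail marks, had the highest median difference at day 3. H3c7 (Hist1h3f) had probe ILMN_2748164 at 10.09 at day 3 and 7.91 at day 5 with Ad-Med1, where Ad-LacZ gave 6.28 and 8.87, not detected on the Ad-LacZ day 3 array, at least 9.97-fold higher at day 3, and had a difference of -0.96 at day 5. Its dim probe ILMN_2925169 stood at 7.10 and 6.16 on the Ad-Med1 arrays of days 3 and 5, against 5.74 and 6.59 on the Ad-LacZ arrays, not detected on the Ad-LacZ day 3 array, at least 1.25-fold higher at day 3, and had a difference of -0.43 at day 5. H3c1 (Hist1h3a) stood at 9.43 (day 3) and 7.49 (day 5) after Ad-Med1, and 5.75 and 8.76 after Ad-LacZ, not detected on the Ad-LacZ day 3 array, at least 6.31-fold higher at day 3, and had a difference of -1.28 at day 5. These genes were highest on the Ad-Med1 day 3 array and at background on the Ad-LacZ array of that day. H3c6 (Hist1h3e) stood at 11.03 at day 3 and 8.52 at day 5 with Ad-Med1, where Ad-LacZ gave 7.63 and 10.15, a difference of 3.40 and -1.63. H3c4 (Hist1h3d) stood at 10.68 and 8.40 on the Ad-Med1 arrays of days 3 and 5, against 7.77 and 9.95 on the Ad-LacZ arrays, a difference of 2.91 and -1.55. H3c6, H3c4 and H3c1 had opposite signs on the 2 days, at least 2-fold on each. H3c10 (Hist1h3h) had probe ILMN_2592253 at 12.12 (day 3) and 11.26 (day 5) after Ad-Med1, and 9.64 and 11.60 after Ad-LacZ, a difference of 2.48 and -0.34. ILMN_2698519 of H3c10 stood at 9.25 at day 3 and 7.03 at day 5 with Ad-Med1, where Ad-LacZ gave 5.85 and 8.02, not detected on the Ad-LacZ day 3 array, at least 5.53-fold higher at day 3, and had a difference of -0.99 at day 5.

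H3c8 (Hist1h3g) was near background except on the Ad-Med1 day 3 array. Its probe ILMN_3002290 stood at 7.81 and 6.11 on the Ad-Med1 arrays of days 3 and 5, against 6.51 and 6.41 on the Ad-LacZ arrays, not detected on either Ad-LacZ array, at least 2.05-fold higher at day 3, and had no bound at day 5, where the undetected Ad-LacZ signal was the higher. ILMN_2777961 of H3c8 stood at 7.60 (day 3) and 5.37 (day 5) after Ad-Med1, and 4.83 and 5.56 after Ad-LacZ, at least 1.77-fold higher at day 3, and was detected on the Ad-Med1 day 3 array alone. On chromosome 3, the brightest H3 probe was that of H3c13 (Hist2h3b): it stood at 12.78 at day 3 and 12.16 at day 5 with Ad-Med1, where Ad-LacZ gave 10.62 and 12.13, a difference of 2.16 at day 3 and 0.03 at day 5. H3c14 (Hist2h3c1) had 2 detected probes that disagreed at day 5. ILMN_3040069 stood at 9.36 and 6.18 on the Ad-Med1 arrays of days 3 and 5, against 6.59 and 9.13 on the Ad-LacZ arrays, not detected on the Ad-LacZ day 3 array, at least 6.0-fold higher at day 3, and had a difference of -2.95 at day 5. ILMN_3136540 stood at 12.53 (day 3) and 12.18 (day 5) after Ad-Med1, and 9.996 and 11.91 after Ad-LacZ, a difference of 2.53 and 0.26. The bright H3 probes of chromosome 3 were thus near 0 at day 5, and the H3 medians there (3 probes) were 2.53 for day 3 and 0.03 for day 5, while chromosome 13 gave 2.91 and -0.97.

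H4 is the partner of H3 in the core tetramer. Of its 13 probes compared on both days, 12 were at least 2-fold higher at day 3 and at least 2-fold lower at day 5, where 0.859% of all probes were. Opposite signs with no 2-fold limit were as frequent in H2B (12 of 13) and also held for 9 of 11 H3 probes, where 15.0% of all probes were above 0 at day 3 and below 0 at day 5. H4c18 (Hist1h4n) had probe ILMN_2937548 at 9.33 at day 3 and 7.17 at day 5 with Ad-Med1, where Ad-LacZ gave 5.89 and 9.62, not detected on the Ad-LacZ day 3 array, at least 5.88-fold higher at day 3, and had a difference of -2.45 at day 5. ILMN_2597653, also for H4c18, stood at 9.17 and 7.35 on the Ad-Med1 arrays of days 3 and 5, against 6.89 and 9.11 on the Ad-LacZ arrays, a difference of 2.29 and -1.76. H4c12 (Hist1h4k) had probe ILMN_1243654 at 9.65 (day 3) and 7.42 (day 5) after Ad-Med1, and 6.47 and 9.96 after Ad-LacZ, not detected on the Ad-LacZ day 3 array, at least 7.30-fold higher at day 3, and had a difference of -2.55 at day 5. Its second probe, ILMN_2525570, stood at 8.40 at day 3 and 6.68 at day 5 with Ad-Med1, where Ad-LacZ gave 5.44 and 8.70, not detected on the Ad-LacZ day 3 array, at least 3.09-fold higher at day 3, and had a difference of -2.01 at day 5. On each of these probes the Ad-LacZ day 3 array was the lowest, and the Ad-Med1 day 3 and Ad-LacZ day 5 arrays were the highest. H4c6 (Hist1h4f) had probe ILMN_1222313 at 9.92 and 8.23 on the Ad-Med1 arrays of days 3 and 5, against 6.86 and 9.91 on the Ad-LacZ arrays, a difference of 3.06 and -1.68. ILMN_1230265 of H4c6 stood at 8.82 (day 3) and 6.98 (day 5) after Ad-Med1, and 5.47 and 8.45 after Ad-LacZ, not detected on the Ad-LacZ day 3 array, at least 4.11-fold higher at day 3, and had a difference of -1.47 at day 5. The third H4c6 probe, ILMN_2525565, stood at 8.17 at day 3 and 6.16 at day 5 with Ad-Med1, where Ad-LacZ gave 5.43 and 7.36, not detected on the Ad-LacZ day 3 array, at least 2.62-fold higher at day 3, and had a difference of -1.19 at day 5.

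The H4 genes with 1 detected probe had the same signs, apart from H4c3, H4c4 and H4c14. H4c8 (Hist1h4h) stood at 10.72 and 9.12 on the Ad-Med1 arrays of days 3 and 5, against 8.39 and 11.56 on the Ad-LacZ arrays, a difference of 2.33 at day 3 and -2.45 at day 5. H4c1 (Hist1h4a), with the brightest H4 probe, stood at 11.02 (day 3) and 9.57 (day 5) after Ad-Med1, and 9.51 and 11.41 after Ad-LacZ, a difference of 1.5 and -1.84. H4c9 (Hist1h4i) stood at 9.94 at day 3 and 8.36 at day 5 with Ad-Med1, where Ad-LacZ gave 8.17 and 10.13, a difference of 1.77 and -1.77. H4c8, H4c1 and H4c9 were all highest on the Ad-LacZ day 5 array, with the Ad-Med1 day 3 array next. H4c11 (Hist1h4j) stood at 9.63 and 8.32 on the Ad-Med1 arrays of days 3 and 5, against 8.30 and 10.17 on the Ad-LacZ arrays, a difference of 1.33 and -1.85. H4c17 (Hist1h4m) stood at 9.13 (day 3) and 7.45 (day 5) after Ad-Med1, and 6.80 and 8.69 after Ad-LacZ, a difference of 2.34 and -1.25. H4c3 (Hist1h4c) was detected on the Ad-LacZ day 5 array alone: it stood at 5.91 at day 3 and 5.13 at day 5 with Ad-Med1, where Ad-LacZ gave 5.55 and 6.54, at least 1.37-fold lower after Ad-Med1 at day 5. The 2 detected histone genes short of 2-fold on both days were H4c4 and H4c14. H4c4 had differences of -0.07 and -0.54. H4c14 (ILMN_2626619) was detected on the Ad-Med1 day 5 array alone, at 6.20, which was too dim to give a bound.

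**Figure D3:**
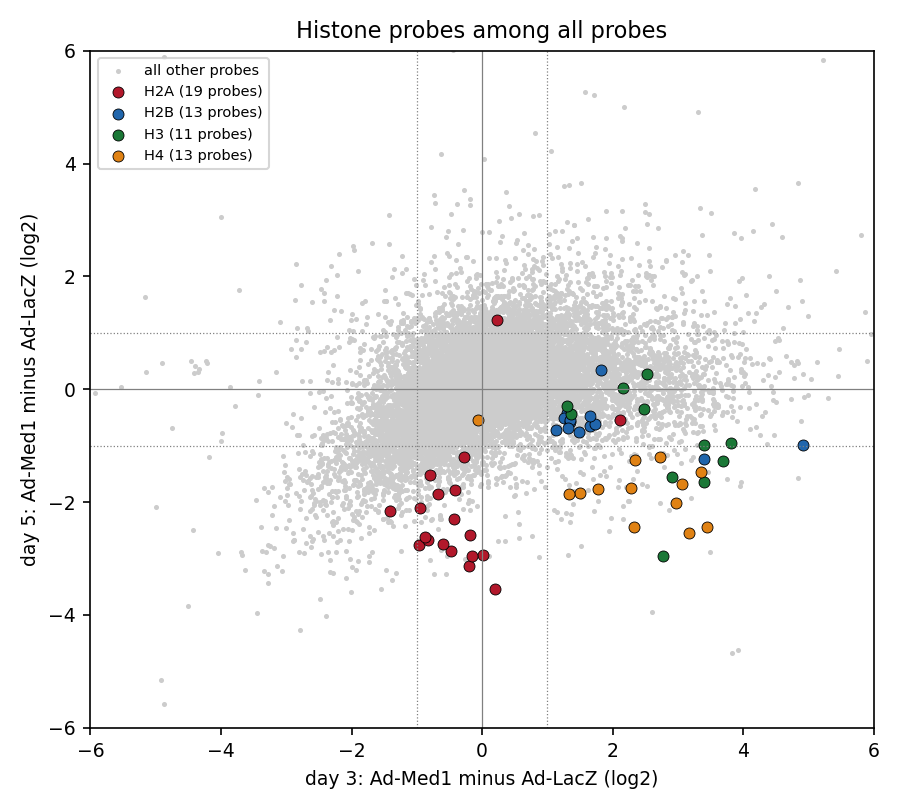
Difference between the Ad-Med1 and Ad-LacZ arrays (log2) at day 3 (horizontal) and day 5 (vertical) for each histone probe compared on both days, over 14842 other probes in grey (9 of them beyond the axes); dotted lines mark 2-fold. H4 points lie mostly in the lower right corner, H3 and H2B points lie right of the 2-fold line and mostly below 0, and H2A points lie mostly below 0 near the middle.

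Over the 56 histone probes compared on both days, 17 (30.4%) were at least 2-fold higher at day 3 and at least 2-fold lower at day 5, a combination held by 128 of 14898 probes in all (0.859%). These were 12 of 13 H4, 4 of 11 H3, 1 of 13 H2B and 0 of 19 H2A probes. The day 5 difference was below the day 3 difference for 55 of the 56, where it was for 6843 of 14898 probes in all. The exception was the H2ac18 probe ILMN_1228849. The median of the change from day 3 to day 5 was -4.38 for H3, -4.05 for H4, -2.01 for H2B and -1.83 for H2A. For all probes it was 0.07. With 1 array per group the change has no residual degree of freedom, so it was not tested.

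Histone levels differed between the days after either virus, in opposite directions. After Ad-Med1, 37 of 59 histone probes (62.7%) were at least 2-fold lower at day 5 than at day 3, where 2.79% of all 15883 probes compared were, and 0 were at least 2-fold higher, where 4.68% of all were. The medians were -2.07 for H3, -1.69 for H4, -1.55 for H2B and -0.65 for H2A. After Ad-LacZ, 37 of 58 histone probes (63.8%) were at least 2-fold higher at day 5 than at day 3, where 13.9% of all 14844 probes compared were, and 1 was at least 2-fold lower, where 7.79% of all were. The medians were 2.18 for H3, 2.09 for H4, 1.44 for H2A and 0.47 for H2B. H2B thus had the smallest median of the 4 classes between the Ad-LacZ arrays, and H2A between the Ad-Med1 arrays. These comparisons share arrays with those between the viruses.

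**Figure D4:**
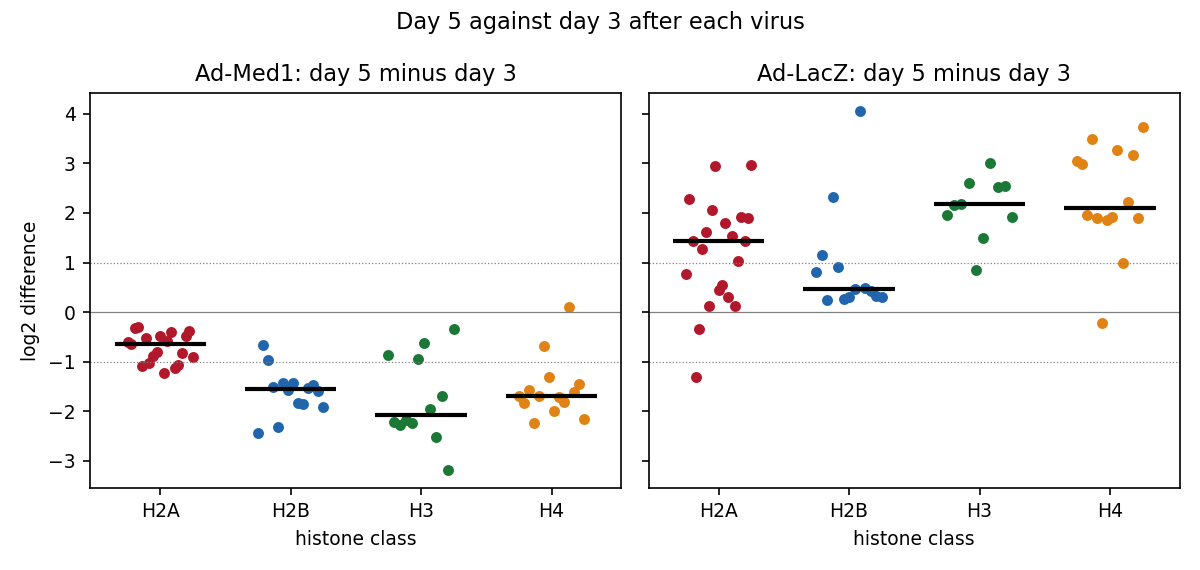
Day 5 minus day 3 (log2) for each histone probe compared, after Ad-Med1 (left) and after Ad-LacZ (right), by class; black bars are class medians and dotted lines mark 2-fold. All but 1 of 59 points lie below 0 after Ad-Med1, and 55 of 58 lie above 0 after Ad-LacZ. Of all probes compared, 8262 of 15883 were below 0 after Ad-Med1 and 6454 of 14844 above 0 after Ad-LacZ.

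Because each day rests on a single control array, the Ad-Med1 arrays were also set against the Ad-LacZ array of the other day. Set against Ad-LacZ day 5, the Ad-Med1 day 3 medians were 1.0 for H2B, 0.70 for H3, -0.24 for H4 and -1.52 for H2A, with 13 of 61 probes (21.3%) at least 2-fold higher and 17 (27.9%) lower by as much, where 9.32% and 9.59% of all probes were. Set against Ad-LacZ day 3, the Ad-Med1 day 5 medians were 1.18 for H3, 0.73 for H4, -0.13 for H2B and -1.07 for H2A, with 14 of 57 probes (24.6%) at least 2-fold higher and 12 (21.1%) lower by as much, where 18.9% and 14.2% of all probes were. The H4 median changed sign on both days and the H3 median at day 5, while H2A stayed below 0 and H2B kept its sign on both days. H2A below H2B, H3 and H4 was the order that held under either control.

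A single fit of the virus effect over both days (limma, with day as a term) called 0 of 62 histone probes at an adjusted p under 0.05, as it did 0% of all 16767 probes. At an unadjusted p under 0.05 it gave 8 of 62 histone probes, a share no higher than that of all probes (2317 of 16767). Of the 8, 7 were H2A probes lower after Ad-Med1 and 1 (H4c14) was higher. The smallest adjusted p was 0.345, for the H2ac18 probe ILMN_1231053, with an effect of -1.78 ± 0.38 (SE, from limma with 2 arrays of each virus). Its spread is the difference between the days, 1 residual degree of freedom, and not a spread between replicates.

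Genes that make, process and package histones were set beside the histone genes, each by its brightest probe. Of 12 S phase genes, 10 of 11 compared were at least 2-fold higher at day 3 (median 2.35), and 4 of 11 at day 5 (median 0.83), and by their brightest probes none was at least 2-fold lower. Mcm6, of the replicative helicase, was higher by 3.10 at day 3 and 2.04 at day 5, and Rrm1 and Rrm2, the subunits of ribonucleotide reductase, by 2.59 and 1.94 and by 2.35 and 1.83. Among the helicase genes, Mcm2 was at least 4.77-fold higher at day 3 and 1.20 higher at day 5, Mcm3 was at least 1.31-fold higher and 0.43 higher, Mcm4 was 1.61 and 0.83 higher, Mcm5 2.37 and 0.21, and Mcm7 1.93 and 0.32. Mcm3 is in the day 3 count by an undetected Ad-LacZ signal, with a bound under 2-fold. A dim Mcm7 probe, ILMN_2673889, was at least 2.17-fold lower at day 5. Pcna, the polymerase clamp, was at least 3.78-fold higher at day 3 and 0.23 higher at day 5, and Tyms, which makes thymidylate, was 1.86 and 0.85 higher. Tk1 had opposite signs on the 2 days, at 0.88 and -0.25 by its brightest probe and at 0.44 and -0.91 by ILMN_2893926. The S phase median was thus above 0 on both days, where the H3 and H4 medians were above 0 at day 3 alone. The same arrays lie behind both.

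Of 21 genes for the transcription and processing of histone mRNA, 8 of 15 compared were at least 2-fold higher at day 3 (median 1.02), and 4 of 14 at day 5 (median 0.54), and by their brightest probes none was at least 2-fold lower. Among their other probes, 3 were at least 2-fold lower at day 3 and 2 at day 5, all of Tut7, which adds uridines to RNA ends. Tut7 was below 0 on all 4 of its detected probes, from -1.80 to -0.80 at day 3 and from -1.81 to -0.65 at day 5. Slbp, which binds the stem loop, Npat and Casp8ap2, of the histone locus body, and Lsm11, of the U7 particle, were detected on no array. Ccne1 and Ccne2, the E cyclins that drive Cdk2, were on the same side on both days: Ccne1 was at least 4.81-fold higher at day 3 and 1.25 (log2) higher at day 5, and Ccne2 was at least 2.18-fold higher at day 3 and at least 2.86-fold higher at day 5. Cdk2, the kinase that phosphorylates Npat, was 1.54 higher at day 3 and 0.15 at day 5, and E2f1, a transcription factor of S phase entry, was 1.81 and 0.89 higher. Sympk, a scaffold of the cleavage complex, was 1.22 and 1.29 higher, Ncbp2, of the cap-binding complex, stood at 1.86 and -0.23, and Upf1, a helicase of histone mRNA decay, at 1.02 and 0.65. Its probe ILMN_2604108 had the other sign, at -0.95 and -0.53. Zfp473, which binds the stem loop complex, was at least 1.17-fold higher at day 3 and not compared at day 5. It is in the day 3 count by an undetected Ad-LacZ signal. Cpsf3, the endonuclease that cuts histone pre-mRNA, was at least 1.60-fold higher at day 3 and at least 1.98-fold higher at day 5, although not detected on either Ad-LacZ array. Its place in the day 5 count rests on that undetected signal.

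Of 17 histone chaperone genes, 5 of 15 compared were at least 2-fold higher at day 3 (median 0.64) and 2 of 16 at day 5 (median 0.42). None was at least 2-fold lower by its brightest probe, and at day 5 the dimmer probes of Rbbp4 and Supt16 were. Chaf1a, the large subunit of chromatin assembly factor 1, was at least 4.26-fold higher at day 3 and 1.28 (log2) higher at day 5, and its partner Chaf1b stood at 1.31 and -0.08. Asf1b, which hands H3 and H4 on, was at least 1.77-fold higher at day 3 and at least 1.15-fold higher at day 5, and Tonsl, which binds new H4, at least 1.87-fold and at least 1.01-fold. Both genes are in the day 3 count by undetected Ad-LacZ signals, with bounds under 2-fold. Nap1l1, a chaperone of H2A and H2B, was 1.19 and 0.89 higher, while the probes of Supt16, of the FACT complex, had opposite signs at day 5. Its brightest probe was 0.15 higher at day 3 and at least 2.36-fold higher at day 5, and its other probe, ILMN_2768053, was at least 1.76-fold lower at day 5.

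Histone genes that are expressed outside S phase served as a comparison within the histones. Of 11, 5 of 9 compared were at least 2-fold higher at day 3 (median 1.07) and 1 of 9 at day 5 (median 0.42). None was at least 2-fold lower by its brightest probe. The linker histone gene H1f10 was at least 14.3-fold higher at day 3 and 2.10 (log2) higher at day 5. H2ax, the variant marked at DNA breaks, stood at 2.36 and 0.92, H2az1, of promoters, at 1.49 and 0.42, H2aj at 1.07 and 0.50, and Cenpa, of centromeres, at 2.12 and -0.14. The probes of H2aj disagreed at day 5, where ILMN_2524980 stood at 0.66 and ILMN_2994806, detected on all 4 arrays, at -1.17. H2ax and H2az1, each read by 1 detected probe, were thus above 0 on both days, where the replication-dependent H2A medians were below 0 on both. Other H2A variants did not stand apart in this way: H2az2 was near 0 on both days (0.06 and 0.03), and Macroh2a1 stood at 0.04 and -0.30 by its brightest probe.

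**Figure D5:**
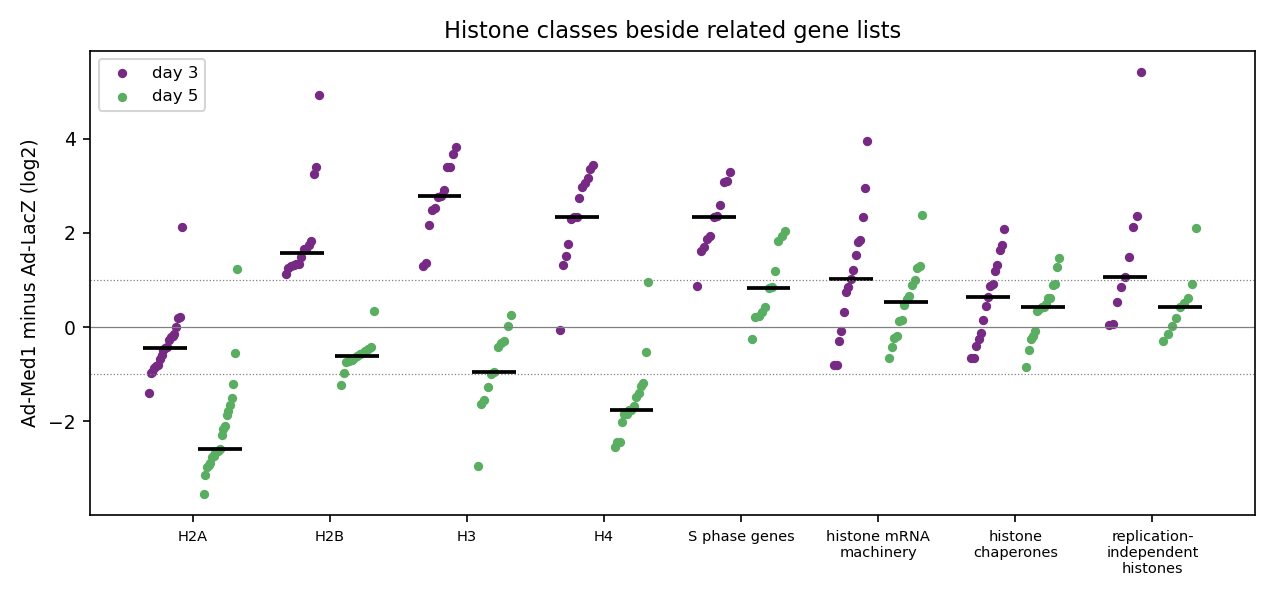
Difference between the Ad-Med1 and Ad-LacZ arrays (log2) at day 3 (purple) and day 5 (green) for each probe compared of the histone classes, and for the brightest probe of each gene of the related lists; black bars are medians and dotted lines mark 2-fold. The day 5 medians of all 4 histone classes lie below 0, while those of the 4 related lists lie between 0.42 and 0.83.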

How the data were processed

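Expression was measured on 4 Illumina mouse bead arrays of liver RNA, 1 array for each of 2 viruses and 2 days. The deposited table holds, for 45281 probes, an intensity and a detection p-value per array, per the file headers; neither background correction nor normalization had been applied by the authors, and the series values were the same intensity values (largest difference 0). RNA was labelled with a poly(A)-primed kit, per the labels' protocols.

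From these, intensity values were corrected and quantile-normalized on the log2 scale with neqc (limma 3.58.1, R 4.3.3, offset 16), whose background estimate comes from the detection p-values. Probes were named from the platform annotation, in which 34885 probes have 1 gene symbol, 18 several and the rest none; all 78 histone probes were placed through RefSeq gene IDs. The virus effect was fitted over both days with limma, day as a term and Benjamini-Hochberg adjustment over all 16767 probes detected on at least 1 array. A first run on simulated data used a spread smaller than the fitted one, so it cannot show how the fit performs on these arrays. The number of arrays limits the precision. Named with their levels were all histone genes at least 2-fold different at day 3 or day 5 (41), the brightest probe of each class and probes of a gene that disagree; related lists were named from their members past 2-fold, the largest first. Members and lists were chosen with earlier results of these data known. Alternatives changed the normalization, the detection limit, the filter, the control array, the probes per gene and the fold.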

Additional observations from a re-analysis of the deposited data

Results flagged for a closer look

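The difference between Ad-Med1 and Ad-LacZ had opposite signs on the 2 days for 3 histone classes and for 17 single probes past 2-fold on both days, above 0 at day 3 and below 0 at day 5. This change was not tested, since each group was 1 array, and the day 3 and day 5 values use different control arrays. The Y-linked gene Eif2s3y also had opposite signs, at least 9.86-fold lower at day 3 and at least 17.5-fold higher at day 5. It was not detected on the Ad-Med1 day 3 and Ad-LacZ day 5 arrays, on which H4 probes were high, and its part in the change was not tested.

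The change, as the day 5 difference minus the day 3 difference (log2), had a median of -2.37 over all histone probes, -4.38 for H3, -4.05 for H4 and -2.01 for H2B. Over all probes compared on both days its median was 0.07. The change is given below for the 17 single histone probes past 2-fold on both days. For H4 probes it was -5.90 (ILMN_2937548) and -4.05 (ILMN_2597653) for H4c18, -5.72 (ILMN_1243654) and -4.98 (ILMN_2525570) for H4c12, and -4.82 (ILMN_1230265), -4.74 (ILMN_1222313) and -3.93 (ILMN_2525565) for H4c6. It was -4.78 for H4c8, -3.58 for H4c17, -3.54 for H4c9, -3.34 for H4c1 and -3.18 for H4c11. For H3 probes it was -5.72 for H3c14 (ILMN_3040069), -5.03 for H3c6, -4.96 for H3c1 and -4.47 for H3c4. The one H2B probe past 2-fold on both days was ILMN_1253851 of H2bc21, at -4.64. Probes short of 2-fold at day 5 also had wide changes. Among them were ILMN_2677231 of H2bc4 at -5.90, ILMN_2748164 of H3c7 at -4.78 and ILMN_2698519 of H3c10 at -4.38. Changes that start from a probe not detected on the Ad-LacZ day 3 array rest on its measured signal there.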

How the results depend on the processing

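No paired analysis was possible because each group is 1 array and the labels give no replicate numbers. With no replicates, a median or single difference was taken as moved where it shifted by 1.5-fold or more, and a count where it changed by more than 1.5 times; the cause of each change was not tested unless the setting itself shows it. A detection limit of 0.05 moved none of the values, and other limits are that dim probes give bounds only and that probes of near-identical copies are not independent.

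Of the settings tried, the control array changed the most signs of single differences. With the Ad-LacZ array of the other day, 13 histone probes were at least 2-fold higher and 17 lower at day 3 (9.32% and 9.59% of all probes), and 14 higher and 12 lower at day 5 (18.9% and 14.2%). The day 3 medians were 0.23 for all histone probes, -1.52 for H2A, 0.70 for H3 and -0.24 for H4, and the day 5 medians -0.0765 for all, -1.07 for H2A, 1.18 for H3 and 0.73 for H4. Of 75 single differences past 2-fold, 24 changed sign, 35 moved and 16 kept their value; of 78, a common median moved 59 and changed the sign of 3, with background correction it moved 59, and quantiles without background correction moved 32. With the other control, signs changed at day 3 for H4c1 (-0.39), H4c11 (-0.54), H4c12 (-0.32 and -0.29), H4c18 (-0.29), H4c8 (-0.84) and H4c9 (-0.19). At day 5 they changed for H2ac18 (-0.0765, ILMN_1228849), H2bc21 (1.08), H3c1 (1.74), H3c4 (0.63), H3c6 (0.88), H4c1 (0.059), H4c11 (0.0183), H4c12 (0.94 and 1.25), H4c17 (0.65), H4c18 (0.47 and 1.29), H4c6 (1.37, 1.51 and 0.73), H4c8 (0.72) and H4c9 (0.19).

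Scaling arrays to a common median in place of quantiles lifted all probes, to medians of 0.93 at day 3 and 0.78 at day 5 from the uncorrected values (46.3% higher and 0.526% lower at day 3, 35.4% and 0.759% at day 5), and of 1.11 and 0.89 after background correction (55.0% and 2.21%, 43.7% and 2.99%). With the uncorrected values, histone medians at day 3 were 2.18 for all, 0.77 for H2A and 2.30 for H2B, and at day 5 -0.29 for all, -1.31 for H2A, 0.17 for H2B, 0.22 for H3 and -0.33 for H4. At day 3, 0 histone probes were at least 2-fold lower, and at day 5, 2 were at least 2-fold higher and 15 lower. H2bc21 (0.0914, ILMN_1253851), H3c1 (0.0517) and H4c17 (0.0777) changed sign at day 5. With background correction, the day 3 medians were 2.57 for all, 0.73 for H2A, 2.35 for H2B, 3.79 for H3 and 3.46 for H4, and the day 5 medians -0.65 for all, -1.76 for H2A, 0.10 for H3 and -0.76 for H4, with 0 at least 2-fold lower at day 3 and 3 higher and 23 lower at day 5. Less the median of all probes, every class kept its sign: at day 3 H2A stood at -0.16 and -0.39 under the 2 scalings, and at day 5 H2B at -0.60 and -1.02 and H3 at -0.55 and -0.79.

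Quantile normalization without background correction gave day 3 medians of 2.18 for H3 and 1.47 for H4. With it, 2 of 58 histone probes were at least 2-fold lower at day 3, where 6.67% of all probes were. At day 5, 0 of 60 were at least 2-fold higher, where 3.53% of all probes were. Keeping probes detected on both arrays left 24 higher at day 3 and 0 higher at day 5, since fewer probes were compared. The share of all probes higher also fell, to 9.78% at day 3 and 6.55% at day 5. Raising undetected signals to the lowest detected one, or using 1 probe per gene, left 0 higher at day 5, where 6.52% and 10.2% of all were. With no filter the H3 median at day 5 was -0.32. A 1.5-fold threshold gave 8 lower at day 3 and 2 higher at day 5, with no share of all probes at hand to set beside them. The limma fit called 3 histone probes, all higher after Ad-Med1, on the uncorrected values at a common median, where 7819 of 16767 probes (46.6%) were called. Without a day term and leaving out 1 array at a time it called 0 to 1, the 1 without the Ad-LacZ day 5 array, where 1616 of 16767 probes (9.64%) were called and the single Ad-LacZ array is assumed to vary like the others.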

Other observations

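The platform also holds 10 genes whose older symbols begin with Hist but which the symbol rule does not reach, and this list was formed after values were seen. Of these, 2 were detected, and both are genes of linker histone H1, which binds the DNA between nucleosomes. H1f2 stood at 14.39 and 13.31 on the Ad-Med1 arrays of days 3 and 5, against 12.80 and 14.04 on the Ad-LacZ arrays, a difference of 1.59 at day 3 and -0.73 at day 5. Its second probe gave 1.5 and -0.75. H1f2 thus had the signs of the H2B, H3 and H4 medians on both days. H1f3, detected on the Ad-Med1 day 3 array alone (6.35), was not detected on the other 3.

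Slbp was detected on no array, with levels of 4.74 and 4.86 on the Ad-Med1 arrays of days 3 and 5 and of 4.75 and 4.67 on the Ad-LacZ arrays, although 43 histone genes were.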
